A study of Mus musculus with 35 samples.

Results

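The collagen and laminin genes were followed in whole-kidney RNA from diabetic and control FVB/NJ mice aged 2, 4 and 8 months. They were taken by name, as every gene whose symbol is Col, a number, the letter a and a number, or Lama, Lamb or Lamc and a number. On the array, 52 of 18193 measured genes had such a name, of which 42 were collagens and 10 were laminin chains. Each gene is represented by its brightest probe set, a group of short oligonucleotides that report on a single transcript. Of the 52 genes, 42 had a mean log2 signal of at least 5.273, the 40th percentile of all probe sets, and were tested with the 13004 genes that passed this filter.

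Diabetic animals carried the OVE26 transgene on the FVB/NJ background. In that line extra calmodulin made in the beta cells of the pancreas leaves the animals short of insulin. The control mice were FVB/NJ animals of matching age, for which the labels name no further genotype or treatment. Total RNA of whole kidney was hybridised for 6 diabetic and 6 control samples aged 2 months, 7 and 4 aged 4 months, and 6 and 6 aged 8 months. The labels number the arrays without tying them to litters or cultures, so the p-values measure the spread between arrays. In whole-kidney RNA, a change in the number of cells of a type and a change in RNA per cell cannot be told apart.

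Collagens are triple helices of 3 chains, and laminins are crosses of an alpha, a beta and a gamma chain. Fibrillar collagens build the rope-like fibres of interstitial matrix and scar, whereas collagen IV and laminin form the sheets of basement membrane under epithelia and around vessels. In the glomerulus, the kidney's filter, a chain set unlike that of other basement membranes makes up the mature membrane, and its thickening together with interstitial fibrosis is a textbook feature of diabetic kidney disease.

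The kidney markers were bright, with Miox, an enzyme of the proximal tubule, between 13.83 and 13.94 on the log2 scale in the 8 month control arrays. The median signal of an array was 5.70 to 5.74 at 4 months and 5.96 to 6.09 at the other ages, so that groups were compared within an age. The 3' to 5' log2 ratio of beta-actin, a sign of RNA degradation, was 2.56 in 2 month control array 6 and at most 1.35 on the other arrays. No pair of arrays was identical, with a highest correlation of 0.9975.

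At 8 months, 9 collagen genes rose in diabetic kidneys and 3 collagen and laminin genes fell, out of 42 tested. Those that rose were Col1a1, Col1a2, Col3a1 and Col5a2 of the fibrillar collagens, Col4a1 and Col4a2 of collagen IV, Col18a1, Col6a2 and Col12a1. Those that fell were Col4a4, Col27a1 and Lamc3. Over all genes tested 9.87% rose and 6.95% fell at that age, which gives the scale for 9 and 3 of 42. The groups did not overlap for 4 of the 42, against 9.7% of all genes.

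At the earlier ages hardly any of these genes passed the limma test. At 4 months only Col4a4 was called, and it fell. Over all genes 0.415% rose and 0.554% fell at 4 months, and the groups did not overlap for 3 of the 42 members against 4.81% of all genes. At 2 months 0 of 42 were called with limma, while 5 had an unadjusted p under 0.05, against 15.2% of all genes. Over all genes 0.754% rose and 1.78% fell at 2 months, and the groups were apart for 1 of the 42 members against 1.5% of all genes. In order of age, the 42 members had median log2 differences of 0.08, 0.01 and 0.09, beside -0.01, 0.01 and -0.00 for all genes.

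**Figure D1:**
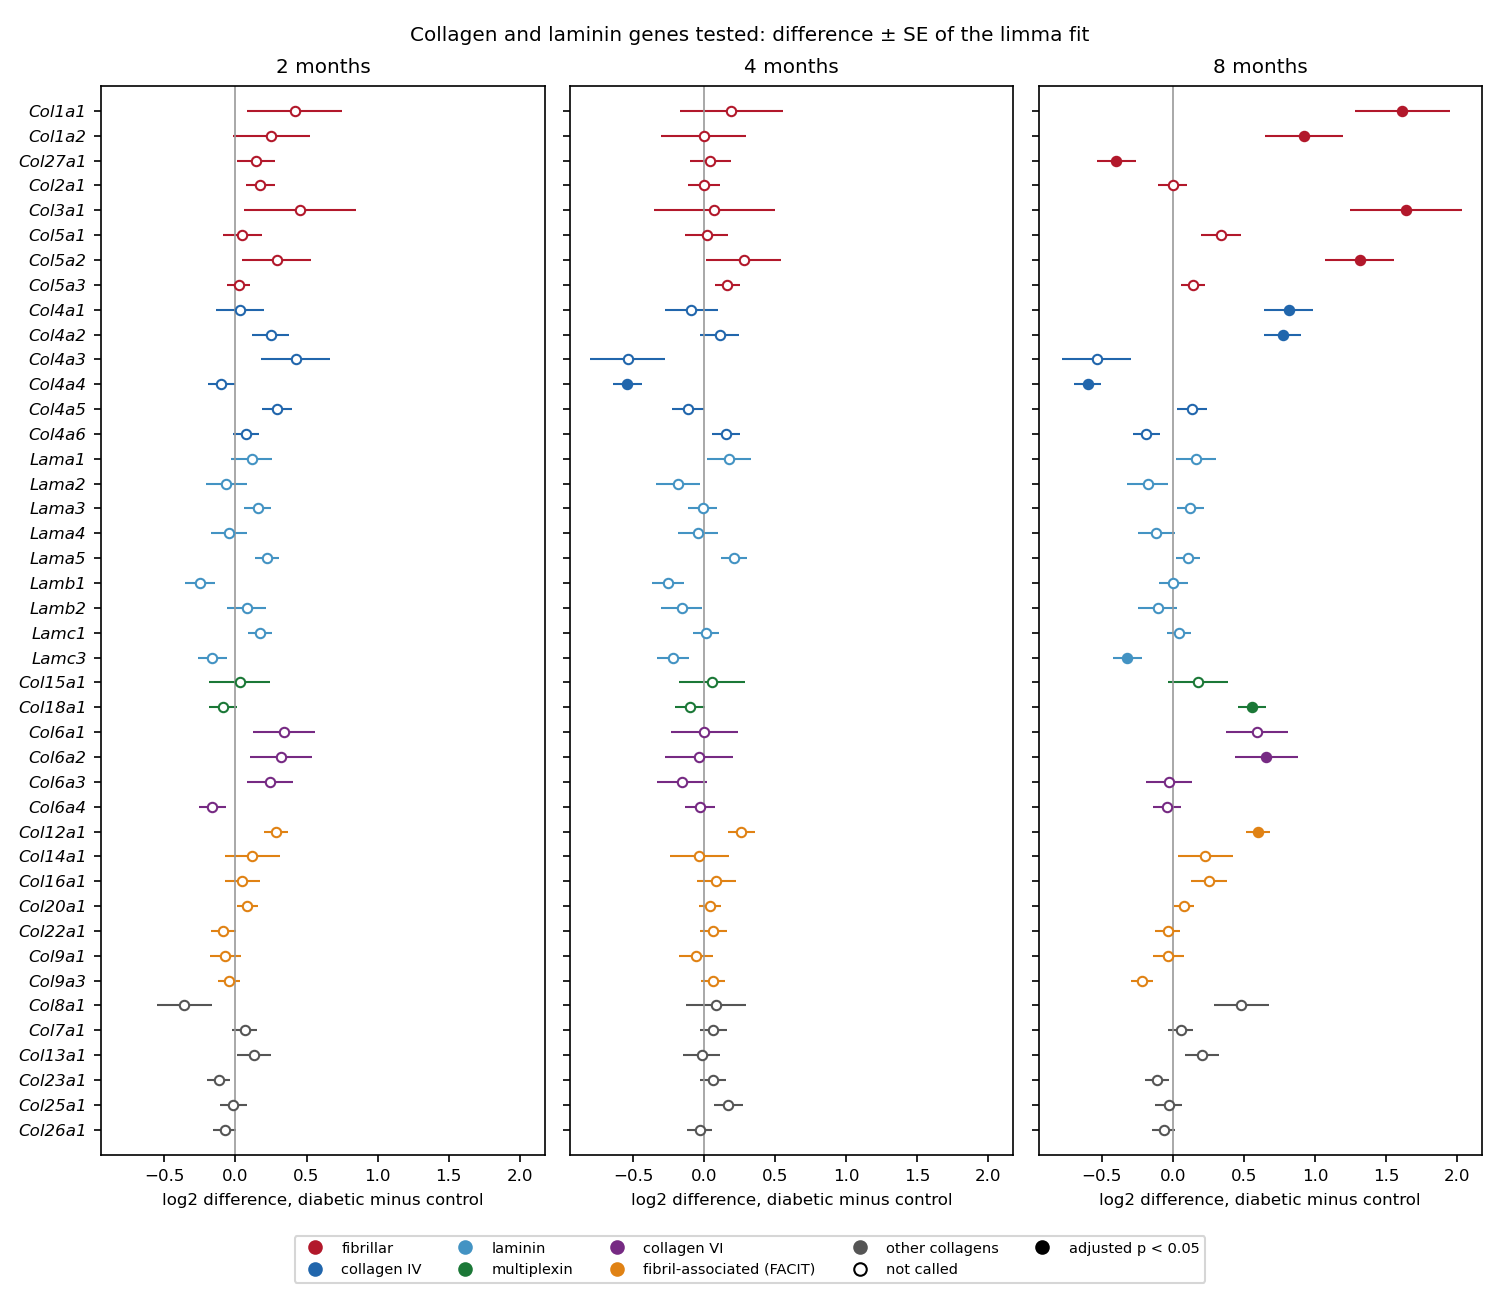
Log2 difference, diabetic minus control, with its standard error for the 42 collagen and laminin genes tested, in a panel for each age and coloured by class. Filled points passed the limma test (0, 1 and 12 genes in order of age), and the widest differences at 8 months belong to Col3a1, Col1a1 and Col5a2.

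Fibrillar collagens accounted for the largest increases at 8 months. Of the 11 measured, 8 were tested, 4 rose, 1 fell and 3 did not pass the test. Col1a1 and Col1a2 encode the alpha chains of type I collagen, the main fibre of scar. Col1a1 lay between 5.66 and 7.12, with a median of 6.30, in the control arrays, and between 6.48 and 10.28, with a median of 7.74, in the diabetic arrays. It was above all controls on 5 of the 6 diabetic arrays, array 5 being inside the control range and array 3 far above the rest. The difference was 1.61 ± 0.33 (SE), or 3.06-fold, with an adjusted p of 0.000686. Col1a2 spanned 8.39 to 9.56, with a median of 9.14, in the controls and 9.02 to 11.72, with a median of 9.76, in the diabetic arrays, 4 of which were above all controls. It rose by 0.92 ± 0.27, or 1.90-fold (adjusted p 0.0166). Its call was lost without diabetic array 3, with a difference of 0.58 and an adjusted p of 0.0697, and without control array 1, with 0.78 and 0.0587.

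Col3a1, whose type III collagen is laid down beside type I in elastic tissue and young scar, had the widest change of the family. Its signal ran from 7.75 to 9.12, with a median of 8.52, in the 8 month controls and from 8.09 to 12.41, with a median of 9.98, in the diabetic arrays. Array 3 held the highest value and array 5 the lowest, and the latter lay inside the control range while the other 5 were above it. The difference was 1.64 ± 0.39, or 3.12-fold (adjusted p 0.00298). Col5a2, a chain of the type V collagen that sets the width of type I fibrils, spanned 5.64 to 6.49 with a median of 6.03 in the controls and 6.48 to 9.29 with a median of 7.14 in the diabetic arrays. It rose by 1.31 ± 0.24, or 2.49-fold (adjusted p 0.000189), and diabetic array 5 was again the one that overlapped the controls. Col3a1 and Col5a2 are neighbours on chromosome 1, with no protein-coding gene between them. Fitted to the 8 month arrays only, Col1a2 had an adjusted p of 0.0941 and Col3a1 of 0.0507, while Col1a1 (0.0378) and Col5a2 (0.0261) were still called.

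Other fibrillar chains moved less or the other way. Col5a1, the usual partner of Col5a2 in the type V helix, lay between 6.47 and 6.85 in the controls and between 6.66 and 7.93 in the diabetic arrays, with a difference of 0.34 ± 0.14 (adjusted p 0.0964), and was called without diabetic array 1 (0.41) or 4 (0.41). Col5a3 differed by 0.14 (adjusted p 0.266) and the cartilage chain Col2a1 by -0.00. Col27a1, a fibrillar collagen best known from cartilage, fell by 0.40 ± 0.13 (adjusted p 0.0378). Its signal ran from 9.42 to 9.80 in the controls and from 8.57 to 9.68 in the diabetic arrays, 5 of which were below all controls, with array 3 lowest and array 4 inside the control range. The difference moved most without diabetic array 3, and the call was close to the threshold. It was lost without diabetic array 1 (-0.40, adjusted p 0.0533), 2 (-0.38, 0.0626) or 3 (-0.27, 0.161) and without control array 2 (-0.37, 0.0872), 4 (-0.36, 0.0899) or 6 (-0.38, 0.0652), and with only the 8 month arrays fitted (0.0712).

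At 2 months every one of the 8 tested fibrillar genes had a positive difference, from 0.02 to 0.45, and 0 of them were called or had an unadjusted p under 0.05 in the limma fit. Col5a2 was the only collagen or laminin gene whose groups did not overlap at that age, with 6.43 to 6.67 in the controls and 6.68 to 6.93 in the diabetic arrays. Its difference was 0.29 ± 0.24 and was not called. The standard error comes from a spread pooled over the 6 groups, and the SD of Col5a2 was 0.99 in the 8 month diabetic arrays but 0.09 and 0.08 in the 2 month control and diabetic arrays. With only the 2 month arrays fitted, the adjusted p of Col5a2 was 0.0944, and that of Col3a1, with a difference of 0.45 and 5 of 6 diabetic arrays above all controls, was 0.0657. At 4 months the fibrillar differences ran from -0.00 to 0.28.

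**Figure D2:**
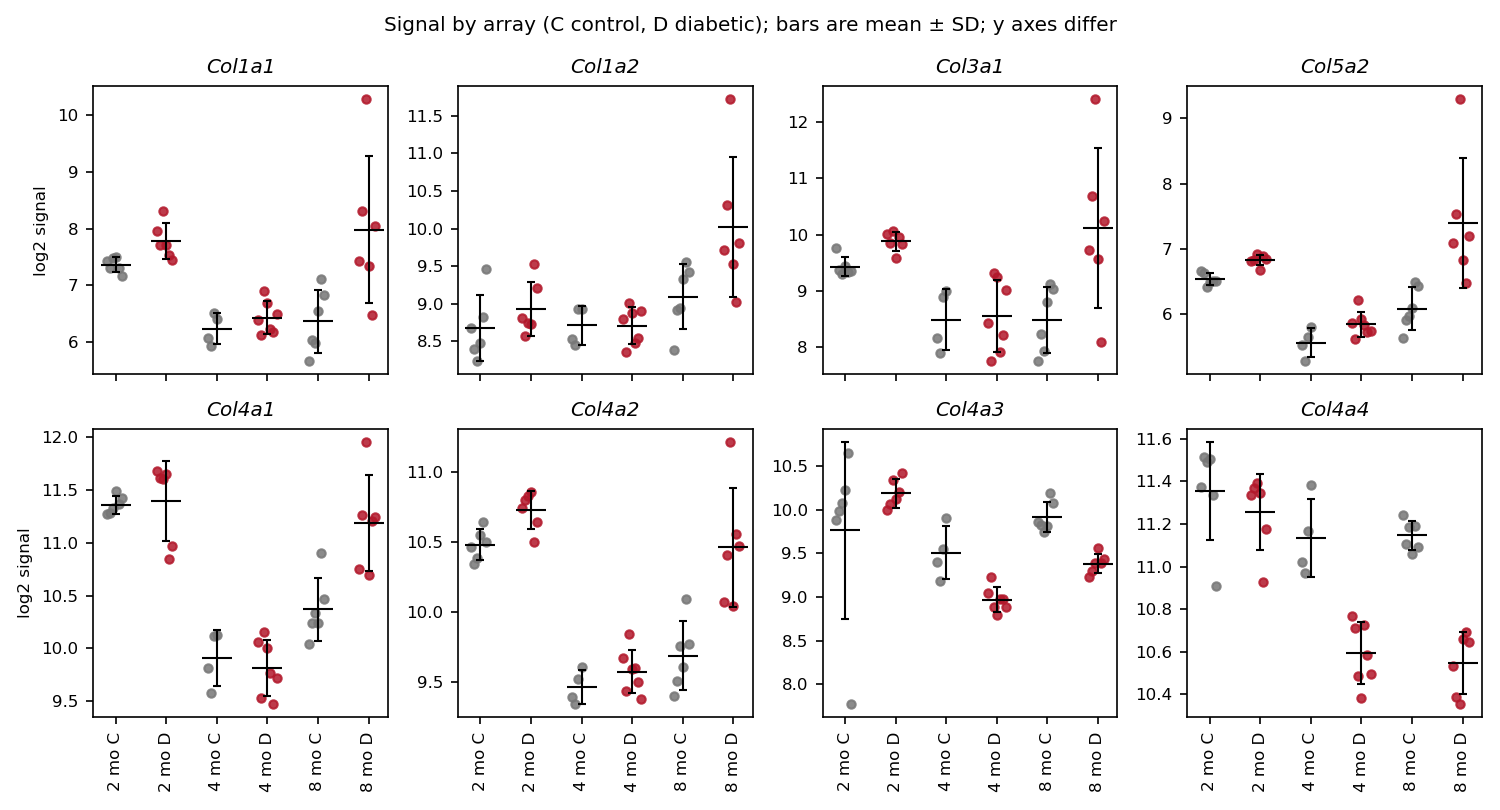
Log2 signal of 4 fibrillar and 4 collagen IV genes on each array, with points for single arrays and bars for the mean and SD of each group at 2, 4 and 8 months (mo). At 8 months the diabetic arrays of Col1a1, Col1a2, Col3a1 and Col5a2 spread widely, up to 12.41 for Col3a1, whereas those of Col4a4 stay between 10.35 and 10.69, below all controls.

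The start regions of 2 fibrillar genes that rose are shown because they differ in the letters that general promoter factors are known to bind. They are the 250 bases before the transcript start, from the RefSeq table on GRCm38.p6, both on the plus strand. Col1a2 is at chr6:4505368-4505617 and Col3a1 at chr1:45311288-45311537. Capitals mark 3 motifs, each searched on both strands. The CCAAT box was searched as CCAAT. The GC box was searched as GGGCGG. The TATA box was searched as TATAAA, and no marked stretch overlaps another.
Col1a2: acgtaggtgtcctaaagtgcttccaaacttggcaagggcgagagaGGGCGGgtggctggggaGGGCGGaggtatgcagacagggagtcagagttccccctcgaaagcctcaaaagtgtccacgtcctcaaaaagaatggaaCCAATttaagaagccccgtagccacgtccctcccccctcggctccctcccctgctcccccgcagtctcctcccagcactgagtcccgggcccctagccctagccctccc
Col3a1: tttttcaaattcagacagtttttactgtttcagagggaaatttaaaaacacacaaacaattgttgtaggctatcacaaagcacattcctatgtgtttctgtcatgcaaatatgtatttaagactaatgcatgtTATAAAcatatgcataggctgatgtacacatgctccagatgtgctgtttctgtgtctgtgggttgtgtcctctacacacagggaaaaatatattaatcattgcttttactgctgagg
The Col1a2 stretch holds a CCAAT box 109 bases and GC boxes 205 and 188 bases before the start, and 62% of its bases are G or C. The Col3a1 stretch holds a TATA box 117 bases before the start, and 35.2% of its bases are G or C. Windows were found for 38 of the 52 genes. In windows of the same 250 bases, the CCAAT box stood in 33.8% of 32851 windows of all genes and in 33.3% of 42 windows of collagen and laminin genes. The GC box stood in 32.7% of all and 54.8% of the family's windows, and the TATA box in 12.4% and 11.9%. The family's windows had a median of 59% G and C against 52.4% for all windows, and letter matches of this kind are descriptions only.

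Of the 6 collagen IV chains, 2 rose, 1 fell and 3 were not called at 8 months. Col4a1 and Col4a2, whose products form the network common to all basement membranes, rose at 8 months. Col4a1 ran from 10.04 to 10.90, with a median of 10.29, in the controls and from 10.70 to 11.96, with a median of 11.23, in the diabetic arrays, and 4 of the 6 were above all controls. The difference was 0.82 ± 0.17, or 1.76-fold (adjusted p 0.000828). Col4a2 ran from 9.40 to 10.09 (median 9.68) and from 10.05 to 11.22 (median 10.44), also with 4 of 6 diabetic arrays above all controls, and differed by 0.77 ± 0.13, or 1.71-fold (adjusted p 4.11e-05). In both genes arrays 1 and 4 overlapped the controls, while array 5, which overlapped them in the fibrillar genes, lay above. Without diabetic array 3 the differences were 0.66 and 0.62, and both were still called. At 2 and 4 months Col4a1 differed by 0.03 and -0.09 and Col4a2 by 0.25 and 0.11, none of them called.

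Col4a1 and Col4a2 lie head to head, with no other protein-coding gene between them. In RefSeq on GRCm38.p6 the Col4a2 start on the plus strand is at base 11312805 of chromosome 8 and the Col4a1 start on the minus strand at base 11312826, so that their first 22 bases overlap. The shared stretch, chr8:11312805-11312826, plus strand, is shown because it belongs to both genes.
Col4a1 and Col4a2 shared start: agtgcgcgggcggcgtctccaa
The other collagen IV genes also lie next to each other. Col4a4 and Col4a3 are neighbours on chromosome 1, and Col4a6 and Col4a5, on chromosome X, start 1343 bases apart and point away from each other. The latter pair had 8 month differences of opposite sign, -0.19 and 0.14, neither called.

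Col4a4 fell at 4 and at 8 months. With Col4a3 and Col4a5 it supplies the chains of the mature glomerular basement membrane, which podocytes make and which is faulty in Alport syndrome. At 4 months the controls read 11.02, 10.97, 11.17 and 11.38, and the 7 diabetic arrays ran from 10.38 to 10.77 with a median of 10.59. Every diabetic array lay below every control, with a difference of -0.54 ± 0.10, or 1.45-fold lower (adjusted p 0.00436). Without control array 4, the highest, the difference was -0.46 with an adjusted p of 0.056, and without control arrays 3 and 4 it was -0.40 with 0.496. At 8 months the controls ran from 11.06 to 11.24 (median 11.15) and the diabetic arrays from 10.35 to 10.69 (median 10.59), again without overlap. The difference of -0.60 ± 0.09, or 1.52-fold lower (adjusted p 2.02e-05), was called in each alternative tried.

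Col4a3 had like differences and a wider spread. At 8 months it ran from 9.75 to 10.19 in the controls and from 9.23 to 9.56 in the diabetic arrays, without overlap, and differed by -0.53 ± 0.24 (adjusted p 0.137). At 4 months the controls read 9.41, 9.18, 9.55 and 9.90, 6 of the 7 diabetic arrays were below them all, and the difference was -0.54 ± 0.26 (adjusted p 0.435). The pooled spread includes 2 month control array 6, where Col4a3 read 7.77 against 9.89 or more on the other arrays of that group, the array with the high beta-actin ratio. Without this array Col4a3 was called at both ages, and so it was with only the 4 month arrays (adjusted p 0.029) or only the 8 month arrays (0.00121) fitted. Its second probe set differed by -0.53 ± 0.13 at 4 months and -0.35 ± 0.12 at 8 months, with adjusted p-values of 0.0329 and 0.0372.

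Col4a5, on the X chromosome, was not lower beside its partners. It ran from 8.98 to 9.26 in the 8 month controls and from 9.21 to 9.43 in the diabetic arrays, a difference of 0.14 ± 0.10 (adjusted p 0.422), and differed by 0.29 at 2 months and -0.11 at 4 months without a call. Col4a6, which joins Col4a5 in the capsule around the glomerulus and in smooth muscle, differed by -0.19 ± 0.09 at 8 months (adjusted p 0.18), with 5 of 6 diabetic arrays below all controls. In order of age, the median over the 6 chains was 0.16, -0.10 and -0.03.

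Some podocyte markers fell at the ages at which Col4a4 fell. At 4 months 1 of 8 tested fell, Thsd7a by 0.59 ± 0.15 (adjusted p 0.0415), and 3 of 8 had an unadjusted p under 0.05 downward. Over all genes 0.554% fell at 4 months, and 11.4% had an unadjusted p under 0.05 in either direction. Ptpro, a phosphatase of the podocyte surface, read 8.11, 8.05, 8.24 and 8.26 in the 4 month controls and at most 8.00 in the diabetic arrays, without overlap, and differed by -0.29 ± 0.10 (adjusted p 0.191). Of 8 tested at 8 months, 3 fell, 0 rose with limma and 0 had an unadjusted p under 0.05 in the upward direction, and the median was -0.20. Over all genes 6.95% fell and 9.87% rose at 8 months. Nphs1, the slit diaphragm protein nephrin, fell by 0.61 ± 0.12, and Ptpro fell by 0.52 ± 0.09, while Podxl, the most abundant of the list, differed by -0.17, Cdkn1c by 0.08 and Synpo by 0.30, none called. The log2 of the list's summed signal was 11.36 to 11.59 in the 8 month controls and 11.08 to 11.50 in the diabetic arrays, and 10.98 to 11.10 against 10.73 to 11.04 at 4 months. The part of these cells in the collagen IV values was not tested.

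Most laminin chains did not pass the test at any age. Of 10 measured, 9 were tested, with median differences of 0.08, -0.04 and 0.00 in order of age. Lama5, Lamb2 and Lamc1, the chains of mature glomerular basement membrane, differed by 0.11 ± 0.09, -0.11 ± 0.14 and 0.04 ± 0.08 at 8 months, none called. Lamb1, the beta chain of the developing glomerulus, read 9.44 to 9.85 in the 8 month controls and 9.23 to 9.79 in the diabetic arrays, with a difference of 0.00. At 2 and 4 months Lamb1 differed by -0.25 with adjusted p-values of 0.22 and 0.38. Lama1 and Lama2, alpha chains of tubular and mesangial membranes, differed by 0.16 and -0.18 at 8 months, Lama3, of epithelial membranes, by 0.12, and Lama4, of endothelial membranes, by -0.12, none called.

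The gamma chain gene Lamc3 fell at 8 months. It ran from 5.75 to 6.44 (median 6.07) in the controls and from 5.50 to 6.17 (median 5.79) in the diabetic arrays, so the groups overlapped. The difference was -0.32 ± 0.10, or 1.25-fold lower (adjusted p 0.0261). The call was lost without diabetic array 1 (-0.26, adjusted p 0.0857) or 5 (-0.30, 0.0571) and without control array 4 (-0.26, 0.0869) or 6 (-0.26, 0.0866), and with only the 8 month arrays fitted (0.0954). The second probe set differed by -0.35 and was not called (adjusted p 0.0724). At 4 months all 7 diabetic arrays, from 5.07 to 5.31, lay below the controls, which read 5.39, 5.42, 5.35 and 5.55, and the difference was -0.22 ± 0.11 (adjusted p 0.463).

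Col18a1, a collagen of basement membranes whose end fragment is endostatin, rose at 8 months in every array. The controls ran from 9.66 to 9.91 (median 9.78) and the diabetic arrays from 9.94 to 10.94 (median 10.35), without overlap. The difference was 0.56 ± 0.10, or 1.47-fold (adjusted p 9.99e-05), against -0.09 at 2 months and -0.10 at 4 months. Col15a1, the other member of its class, spread from 6.38 to 8.71 over the diabetic arrays and from 7.07 to 7.54 over the controls, with a difference of 0.18 ± 0.21 (adjusted p 0.641).

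Collagen VI, which forms beaded filaments around cells, was less clear. Col6a2 ran from 7.50 to 8.85 (median 8.03) in the 8 month controls and from 8.02 to 9.99 (median 8.74) in the diabetic arrays, with 2 of 6 above all controls. It rose by 0.66 ± 0.22, or 1.58-fold (adjusted p 0.0364). Its neighbour Col6a1 ran from 7.79 to 9.05 and from 8.35 to 10.30, with a difference of 0.59 ± 0.22 that was not called (adjusted p 0.0556). The Col6a2 call was lost without diabetic array 1 (0.66, adjusted p 0.0552), 2 (0.63, 0.0628) or 3 (0.41, 0.163), and without control array 1 (0.53, 0.117), 2 (0.61, 0.0845) or 3 (0.60, 0.0855). It was also lost with only the 8 month arrays fitted (adjusted p 0.145), with array weights (0.0546), with quantile normalization within each age (0.0501) and with the replicate block (0.0621). The second Col6a2 probe set differed by 0.54 and was not called (0.0587). Col6a1 was called without diabetic array 4 (0.69) or 5 (0.73), without control array 5 (0.71) or 6 (0.65), and without 2 month control array 6. Col6a3, the third chain of the same filament, differed by -0.03 ± 0.16 (adjusted p 0.944), from 8.92 to 9.53 in the controls and 8.55 to 9.94 in the diabetic arrays, and Col6a4 differed by -0.04.

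Col12a1, a collagen that sits on the surface of type I fibrils, was the member with the smallest adjusted p. At 8 months it ran from 5.90 to 6.09 (median 5.96) in the controls and from 6.38 to 7.08 (median 6.48) in the diabetic arrays, without overlap, and rose by 0.60 ± 0.09, or 1.51-fold (adjusted p 4.58e-06). At 4 months the controls read 6.62, 6.71, 6.65 and 6.58, and all 7 diabetic arrays, from 6.76 to 7.04, lay above them, with a difference of 0.26 ± 0.09 (adjusted p 0.208). At 2 months the difference was 0.28 ± 0.09 (adjusted p 0.0665), with 5 of 6 diabetic arrays above all controls. Without 2 month diabetic array 2 the 2 month difference was 0.32 (adjusted p 0.0376), and it was also called without 8 month diabetic array 3, which enters the pooled spread. Col14a1, of the same class, differed by 0.23 ± 0.19 at 8 months and Col16a1 by 0.26 ± 0.13, neither called, and Col9a3 by -0.21 ± 0.08 (adjusted p 0.055). Col9a3 was called without diabetic array 2 (-0.24) or 3 (-0.24) or without control array 5 (-0.23), and without 2 month control array 6, 2 month diabetic array 6 or 4 month control array 4. It was also called under quantile normalization over all arrays (adjusted p 0.0112) or within each age (0.0373), with only the 8 month arrays fitted (0.0358), with array weights (0.00785) and with the replicate block (0.0239). Col9a1, Col20a1 and Col22a1 differed by -0.03, 0.08 and -0.04, none called.

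Among the remaining collagens, Col8a1, which forms hexagonal networks in vessel walls, differed by 0.48 ± 0.19 at 8 months (adjusted p 0.0877). It ran from 6.90 to 7.48 in the controls and from 7.07 to 8.51 in the diabetic arrays, 4 of 6 being above all controls, and was called without diabetic array 1 (0.60). The anchoring fibril collagen Col7a1 and the transmembrane collagens Col13a1, Col23a1 and Col25a1 differed by 0.05, 0.21, -0.11 and -0.03, and Col26a1 by -0.06, none called. Just inside the filter on dim probe sets stood Col13a1, with a mean log2 signal of 5.28, and Col22a1, with 5.33, and just outside stood Col10a1, with 5.10, and Col11a2, with 4.98.

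The 10 genes below the filter were Col10a1, Col11a1, Col11a2, Col17a1, Col19a1, Col24a1, Col6a5, Col8a2, Col9a2 and Lamb3. Their differences at 8 months, taken from group means, lay between -0.09 and 0.15 except for Lamb3. Lamb3, a beta chain of epidermal laminin, ran from 5.11 to 5.37 in the 8 month controls and from 5.31 to 6.23 in the diabetic arrays, and in a fit without the filter its difference of 0.46 ± 0.15 had an adjusted p of 0.0316. Of the 42 tested genes, 6 had a control mean below the filter at 1 or more ages, and 0 of these 6 were called with limma at any age.

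Fibrillar and basement membrane chains were then set side by side. At 8 months the median difference was 0.63 over the 8 fibrillar genes tested and 0.00 over the 15 collagen IV and laminin genes tested, a gap of 0.628. Col18a1, the basement membrane collagen that rose, and Col15a1 are in a class of their own and count in neither group. The 2 month medians were 0.21 and 0.08 and the 4 month medians 0.06 and -0.09, with gaps of 0.136 and 0.148. The gap at 8 months depends on which fibrillar genes are counted. Over all 11 fibrillar genes and all 16 basement membrane genes measured the medians were 0.14 and 0.02, and with no filter the gap was 0.119, whereas with the filter at the 60th percentile it was 0.882. Without diabetic array 3 it was 0.408. Within the basement membrane group the differences ran from -0.60 to 0.82, with 2 genes that rose, 2 that fell and 11 that did not pass, so a median near 0 covers collagen IV genes that moved apart.

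**Figure D3:**
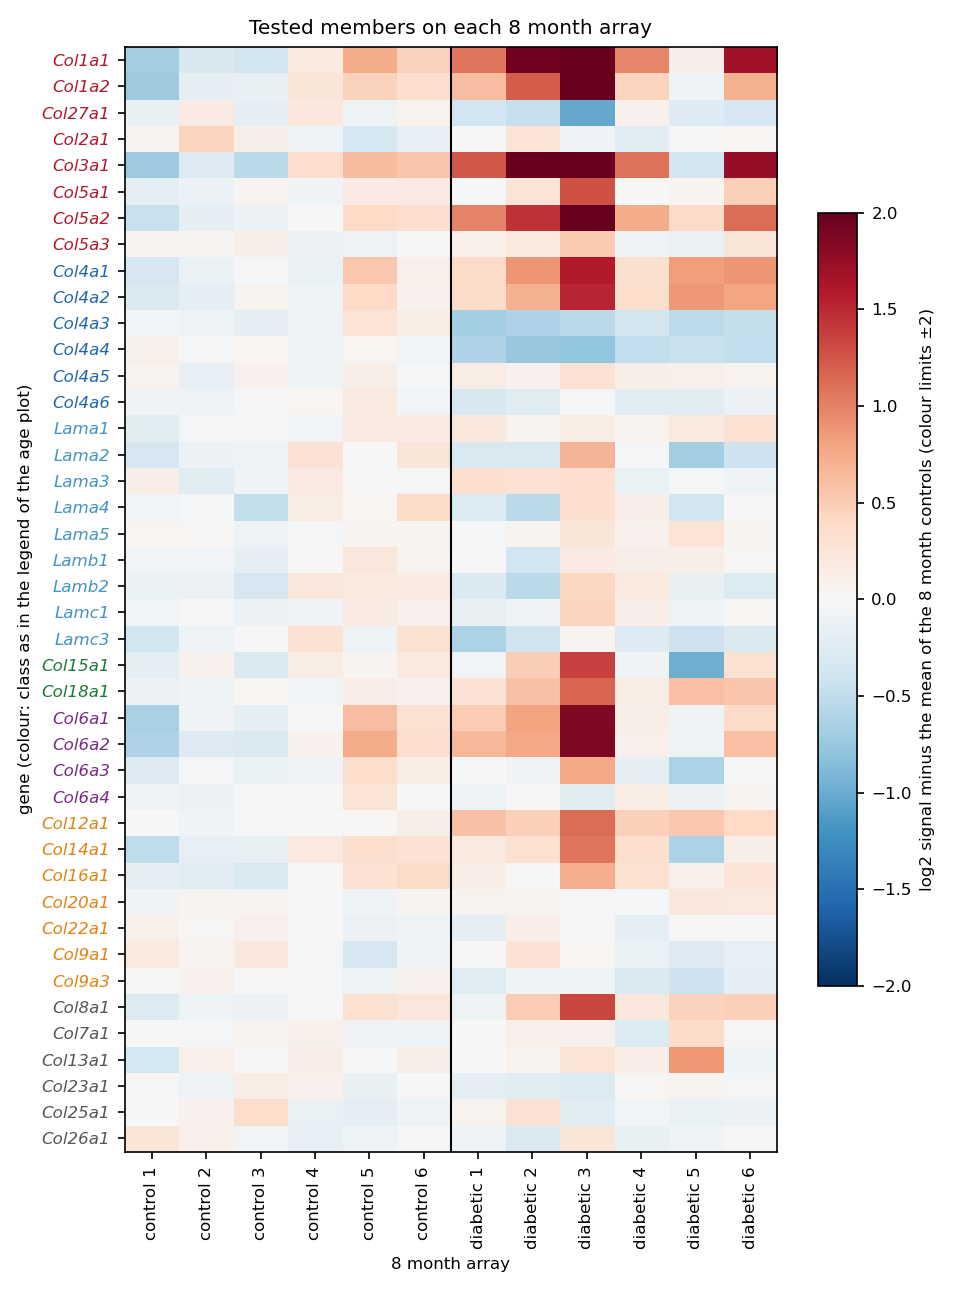
Log2 signal of each tested gene on each 8 month array minus the mean of the 8 month control arrays, as colour on a scale that stops at 2 in both directions. Diabetic array 3 is the reddest diabetic column for Col1a1, Col1a2, Col3a1, Col5a1, Col5a2, Col6a1 and Col6a2 and the bluest for Col27a1, and Col4a3 and Col4a4 are blue on all 6 diabetic arrays.

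The diabetic arrays of 8 months differed widely among themselves. Array 3 held the highest diabetic value in 9 of the 9 genes that rose and in 28 of the 42 tested. How often it was highest over all genes was not counted. Its median signal over all probe sets was also the highest of these arrays, 6.01 against 5.96 to 5.98. The summed macrophage and injured tubule markers, described below, were highest on it too, at 13.99 and 14.48. Array 5 held the lowest in 5 of the 9 and array 4 in 3. Over the 8 fibrillar genes the median deviation from the control mean ran from -0.05 on array 5 to 1.95 on array 3, whereas the basement membrane chains ran from -0.24 on array 2 to 0.29 on array 3. For the control arrays the fibrillar deviation ran from -0.32 to 0.28. Leaving out array 3 kept Col1a1, at 1.15 (adjusted p 0.000802), Col3a1, at 1.18 (0.0118), Col5a2, at 0.94 (1.1e-05), Col12a1, at 0.50 (3.59e-06), and Col18a1, at 0.44 (0.000144), among the calls, lost Col1a2, Col6a2 and Col27a1, and added Col9a3 and Lama2.

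Markers of several cell types moved at 8 months beside the fibrillar genes. Their counts are to be read against the 9.87% of all genes that rose and the 6.95% that fell. The fibroblast list shares 5 genes with the partner lists described further on, and the myofibroblast list 1. Of 13 fibroblast and pericyte markers tested 5 rose and 0 fell with limma, none of them having an unadjusted p under 0.05 in the downward direction, among them Pdgfrb, a growth factor receptor of pericytes, by 0.59 ± 0.17 and Dcn, the fibril proteoglycan decorin, by 0.62 ± 0.20. The sums of signal, here and for the other lists, take every measured gene of a list, those below the filter included. That is 14 genes here, 8 for myofibroblasts, 11 for macrophages and 9 for injured tubules. The log2 of this sum was 12.30 to 13.22 in the diabetic arrays and 11.73 to 12.32 in the controls. Diabetic array 3 was highest, and array 5, which had the lowest fibrillar median, came next at 12.72. Ecm1, the most abundant marker of this list, was itself highest on array 5, at 11.16 against a diabetic median of 10.28. How much of the sum on array 5 came from this gene was not tested. Of 6 myofibroblast and smooth muscle markers tested 2 rose, Acta2 by 0.92 ± 0.15 and Tagln by 1.06 ± 0.19. The sum of the list was 10.63, on array 5, to 11.93, on array 3, against 10.03 to 10.63 in the controls. Macrophage markers rose in 9 of 10, with sums of 12.49 to 13.99 against 11.85 to 12.20. The most abundant of them, Csf1r, had a median of 11.14 in the diabetic arrays and 11.21 in the controls. Injured tubule markers rose in 8 of 8, with sums of 12.87 to 14.48 against 12.33 to 12.48. Proximal tubule markers fell in 7 of 10, with sums of 15.45 to 16.16 against 16.30 to 16.36. Of 10 endothelial markers 0 were called with limma and 0 had an unadjusted p under 0.05, with sums of 12.40 to 12.65 against 12.50 to 12.67. The part of these cells in the collagen values was not tested.

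Whether the effect of diabetes changed with age was tested directly, as the difference between the diabetic minus control differences. From 2 to 8 months Col18a1 became more positive by 0.64 ± 0.14 (adjusted p 0.0061) and Col4a4 more negative by 0.50 ± 0.13 (adjusted p 0.0267), and the other 40 tested members were not called. Over all genes 3.01% became more positive and 0.877% more negative. Col18a1 also differed between 8 and 4 months, by 0.66 ± 0.14 (adjusted p 0.0173), where 0.738% of all genes became more positive. The fibrillar genes had large but imprecise changes, 1.20 ± 0.47 for Col1a1 (adjusted p 0.16), 1.19 ± 0.56 for Col3a1 (0.257) and 1.02 ± 0.34 for Col5a2 (0.09), so their calls at 8 months alone do not show that the effect differed from that at 2 months. Col4a1 changed by 0.78 ± 0.24 (adjusted p 0.0611) and Col8a1 by 0.84 ± 0.28 (0.0783).

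The change of Col4a4 was smaller elsewhere on the array. Its further probe sets changed by -0.23 (adjusted p 0.447) and -0.29 (0.224) from 2 to 8 months, neither called, and the mean of its probe sets by -0.34 (0.0581). The second probe set of Col18a1 changed by 0.46 (adjusted p 0.0457) and was called. Further probe sets were also called for Col12a1, at 1.09 (adjusted p 0.015), Col8a1, at 0.96 (0.0189), and Col27a1, at -0.65 (0.0399). The brightest probe sets of these genes were not called in this test. Of the remaining further probe sets above the filter, none was called.

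These tests between ages moved with single arrays. Col4a4 lost its call without 2 month diabetic array 3 (-0.47, adjusted p 0.0508), 8 month diabetic array 3 (-0.46, 0.0579) or 8 month control array 1 (-0.48, 0.0511). Leaving out 1 array at a time gave 1 to 6 called members, with 5 without 8 month diabetic array 1, 6 without array 4, 4 without array 5, 4 without 8 month control array 5 and 4 without 2 month control array 6. Without diabetic array 5 these included Col1a1 (adjusted p 0.0418) and Col5a2 (0.0273). A single call was made without 8 month diabetic array 3 or control array 1. The share of all genes called moved too. Without 8 month diabetic arrays 1, 3, 4 and 5 in turn it was 3.65%, 2.53%, 5.84% and 3.69%. It was 4.49% without 2 month control array 6. With the replicate number as a block within each age, a pairing the labels do not state, 4 members were called (Col18a1, Col4a1, Col4a4 and Col8a1).

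Probe sets other than the brightest gave a second reading of 18 of the tested genes. At 8 months, 21 such probe sets passed the filter, and 10 of them belonged to a gene that was called. All 10 had the same sign as the brightest, and 8 were called as well. The size could differ, as for Col12a1, where the second probe set differed by 1.36 ± 0.19 against 0.60, and Col1a2, where it differed by 1.41 ± 0.31 against 0.92. Both further probe sets of Col4a4 were called, at -0.50 and -0.48. Col4a3 and Col8a1 were called by their second probe set only, the latter at 0.61 ± 0.17 (adjusted p 0.0114), and the second probe set of Col27a1, at -0.44 ± 0.13, was called with the first.

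**Figure D4:**
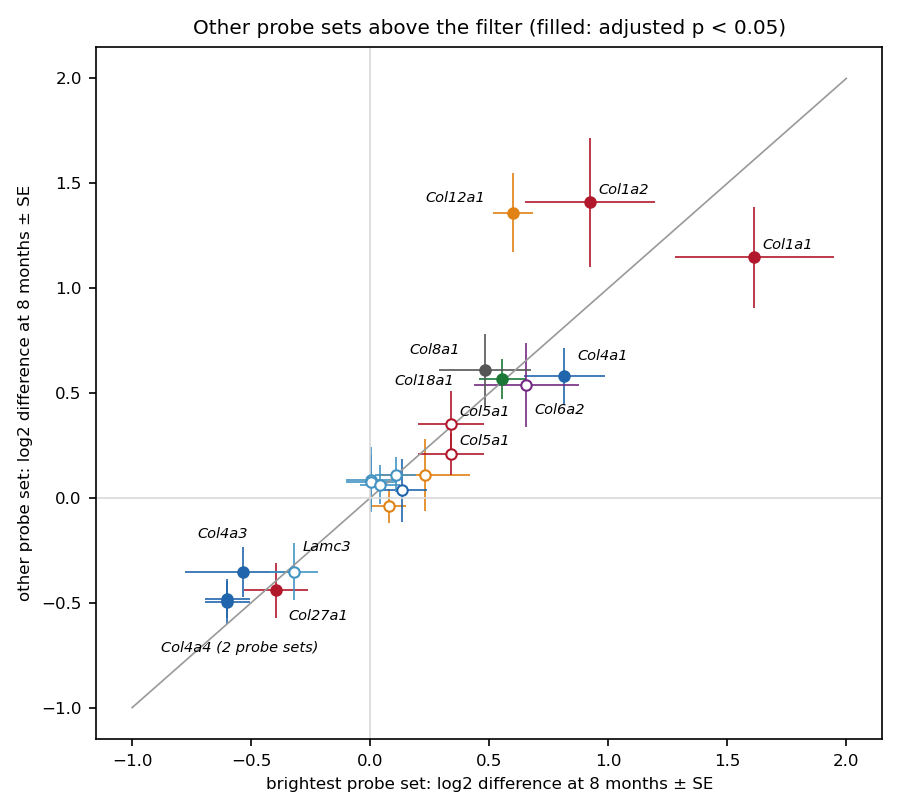
Log2 difference at 8 months, diabetic minus control, of 21 further probe sets against that of the brightest probe set of the same gene, with standard errors on both axes and colours by class as in the plot by age. Col12a1 and Col1a2 lie above the line of equal values and Col1a1 below it, and points are filled where the further probe set passed the limma test.

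Genes that fold and modify collagen chains moved in both directions at 8 months. Of 17 tested 3 rose and 3 fell, with a median of 0.10, and this count and those of the lists that follow are to be read against the 9.87% of all genes that rose and the 6.95% that fell. P4ha2, a prolyl hydroxylase that stabilises the triple helix, ran from 7.77 to 8.36 in the controls and 8.58 to 8.99 in the diabetic arrays and rose by 0.62 ± 0.12. P3h2, a prolyl hydroxylase that acts chiefly on collagen IV, ran from 10.82 to 11.23 and from 10.04 to 10.55 and fell by 0.77 ± 0.10 (adjusted p 8.48e-07). In both genes the groups were apart. The sugar transferases of collagen lysines moved apart, Colgalt1 by 0.28 ± 0.07 and Colgalt2 by -0.46 ± 0.08, both called.

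Enzymes of propeptide cleavage and cross-linking were called more often upward, 4 against 1 of 10 tested. Lox, lysyl oxidase, which cross-links fibrillar collagen, ran from 5.75 to 6.48 in the controls and from 6.72 to 9.31 in the diabetic arrays, with array 3 highest, and rose by 1.43 ± 0.33 (adjusted p 0.00216). Loxl1, its relative of elastic fibres, rose by 0.61 ± 0.19 and the transglutaminase Tgm2 by 0.30 ± 0.07. Pcolce2, an enhancer of propeptide cleavage, fell at 8 months by 0.75 ± 0.21 and at 2 months by 1.06 ± 0.21 (adjusted p 0.00276), the single partner gene called at 2 months. Proteins that bind fibrils rose in 7 of 18 tested, with a median of 0.41, led by Sparc, a collagen-binding matrix protein, at 0.97 ± 0.18. Tnc, the wound matrix protein tenascin C, rose by 0.90 ± 0.21, Emilin1, of elastic fibres, by 0.70 ± 0.13 and Thbs2, a thrombospondin, by 0.50 ± 0.13.

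Basement membrane partners were called in 5 of 21, 2 upward and 3 downward, the upward share being near that of all genes. Egfl6, a basement membrane protein with EGF repeats, had the largest difference of all partner genes named. At 4 months the controls read 7.60, 8.04, 8.56 and 8.61 and the 7 diabetic arrays lay below them, from 6.76 to 7.54, with a difference of -0.98 ± 0.21 (adjusted p 0.0126). At 8 months it ran from 8.76 to 9.44 in the controls and from 7.20 to 7.78 in the diabetic arrays, a difference of -1.69 ± 0.20, or 3.24-fold lower (adjusted p 1.91e-07). The related proteins Tinagl1 and Tinag, the latter of tubular basement membrane, rose by 0.54 ± 0.13 and fell by 0.29 ± 0.09. Ntn4, a laminin-like protein, was not called, with differences of -0.34 at 2 months and 0.17 at 8 months.

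Receptors for collagen and laminin rose in 7 of 15 and fell in 0 of 15 at 8 months with limma, 1 having an unadjusted p under 0.05 downward. Sdc1, a cell surface proteoglycan, ran from 6.91 to 7.37 in the controls and 7.61 to 9.07 in the diabetic arrays and rose by 0.94 ± 0.15. Itga1, the alpha subunit of an integrin for collagen, rose by 0.55 ± 0.10, and Itga3, of a laminin integrin carried by podocytes and tubules, by 0.37 ± 0.08. Itga6, of another laminin integrin, read 9.94, 9.91, 10.36 and 10.45 in the 4 month controls and 9.09 to 9.85 in the diabetic arrays. It fell by 0.68 ± 0.14 at 4 months (adjusted p 0.011) and differed by -0.15 at 8 months without a call.

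**Figure D5:**
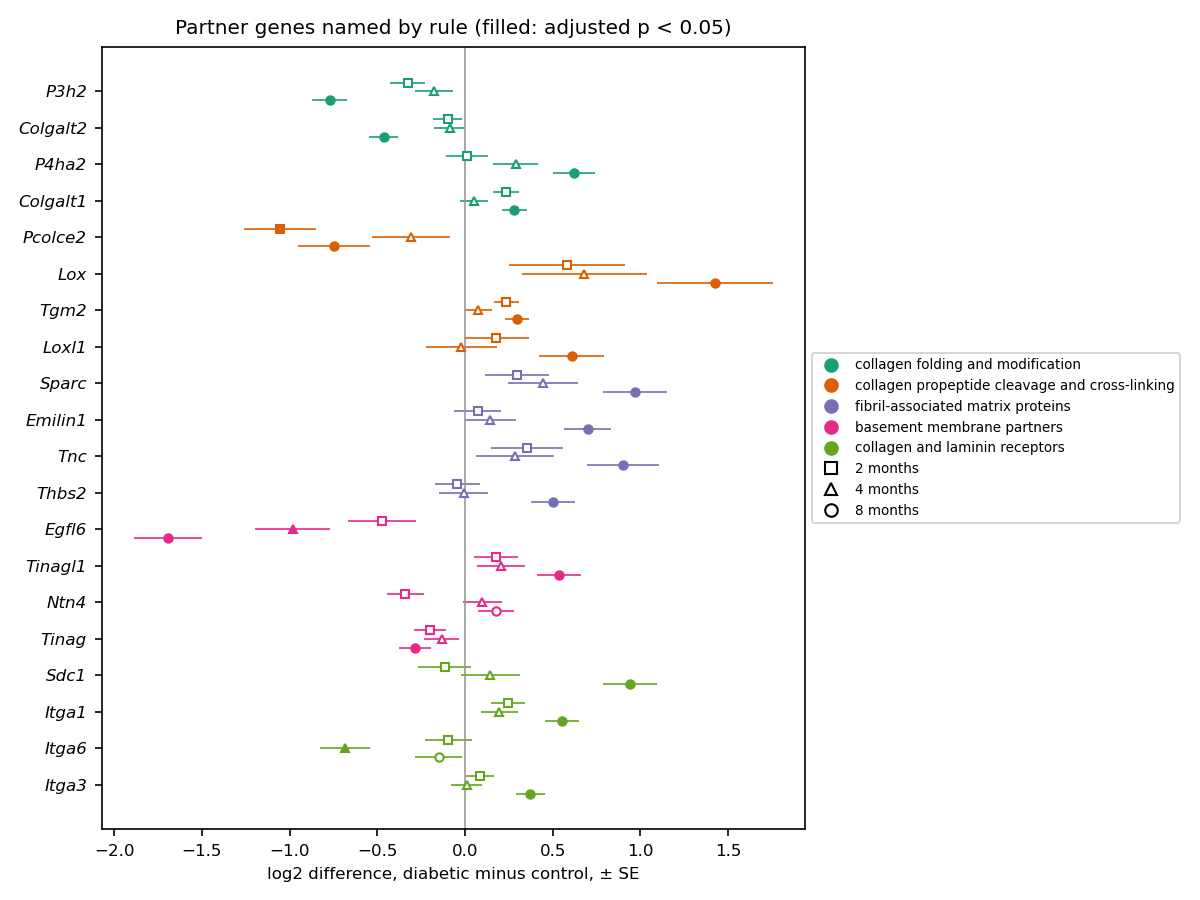
Log2 difference, diabetic minus control, with its standard error for 20 partner genes at 2, 4 and 8 months (squares, triangles and circles), coloured by list. Filled symbols passed the limma test; Egfl6 reaches -1.69 and Lox 1.43 at 8 months.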

How the data were processed

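The authors deposited log2 signals of 45101 probe sets for 35 arrays of biotin-labelled cRNA from whole-kidney total RNA, as the range of the values shows. The background correction, summarization and normalization were not stated in the labels or headers used here. Probe sets were named from the platform annotation, in which 34945 have 1 gene, 932 several and 9160 none, and 64 are controls. Of the named ones, 34741 were matched to RefSeq (GRCm38.p6) by gene identifier. The brightest probe set by its mean stood for each gene, and genes under 5.273 were left out.

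Group means were fitted with limma 3.58.1 (R 4.3.3; data.table, version 1.17.8) over the 35 arrays, with 29 residual degrees of freedom (33.7 after moderation). Genes were called at a two-sided p under 0.05 after Benjamini-Hochberg adjustment over 13004 genes. A further probe set took the place of its gene in that adjustment. Errors are standard errors of the fit unless called SD, and the number of arrays limits the precision. Figures were drawn with Python 3.11.15, pandas 2.3.3 and matplotlib 3.10.9.

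Genes with values by array are the 6 collagen IV chains, Col1a1, Col1a2, Col3a1 and up to 14 further members with the smallest p at any age. Up to 4 genes of each partner list and up to 4 of each marker list were named by p or abundance, and others mentioned in passing were chosen after their values were seen. The members and lists were chosen with earlier results of these data known. Members not named were described by class.

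The labels do not say whether equal replicate numbers mark shared litters or days. After removal of group means, same-numbered diabetic and control arrays correlated at 0.246 to 0.444 in 6 of 6 pairs at 2 months. The range was 0.0484 to 0.177 at 4 months (1 of 4 above 0.1) and -0.142 to 0.233 at 8 months (2 of 6). Only the 2 month numbers met the rule for pairs. Arrays of unlike number were not compared, so these correlations do not show that equal numbers mark pairs. The reported fit has no block, and the alternative has the number as a block at every age. The fit was tried on simulated data with the same spread of a gene in all groups. That trial cannot show how the fit behaves where the spread differs between groups, as it did for Col5a2.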

Additional observations from a re-analysis of the deposited data

Results flagged for a closer look

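Among the members named by rule and the medians of the fibrillar and basement membrane genes, 150 groups of 4, 6 or 7 arrays were examined for an array far from the others, and 12 had one, where chance gives about 1 in 20. In 2 month control array 6, which has the high 3' to 5' ratio of beta-actin, Col4a3 read 7.77, Col4a4 10.91, Col4a5 8.32 and Lama5 8.20, each far below the other controls, and Col16a1 read 7.59, far above them. In 8 month diabetic array 3, which was highest for most members, Col4a5 read 9.43 and Col12a1 7.08. Array 4 of the 4 month controls was low for Col9a3, at 5.55, and high for Lamb1, at 11.02. Lamb1 also stood apart at 10.67 in 4 month diabetic array 1 and at 9.23 in 8 month diabetic array 2, and Col3a1 at 9.76 in 2 month control array 1. What set these arrays apart was not tested.

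The effect of diabetes on the brightest probe sets of Col18a1 and Col4a4 differed between ages. Col18a1 changed by 0.64 from 2 to 8 months and by 0.66 from 4 to 8 months, and Col4a4 by -0.50 from 2 to 8 months, each by the limma test of the difference itself. The further probe sets of Col4a4 changed by -0.23 and -0.29 and were not called.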

How the results depend on the processing

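At 8 months 12 members were called, 9 to 13 over other normalizations, filters, probe set rules, array weights and the block, and 10 to 15 leaving out 1 array. The fewest, 9, came from a fit of that age alone, and the 15 from leaving out 2 month control array 6. At 2 months the count of 0 became 1 under quantile normalization over all arrays, under quantile normalization within each age and with a term for 2 month arrays 5 and 6, 2 with array weights, and 0 to 1 leaving out 1 array. In each case Col12a1 was called, with Col4a2 under array weights. Arrays 5 and 6 of both 2 month groups had median signals of 6.05 to 6.09, against 5.98 to 6.03 on the other 2 month arrays. The labels do not set them apart, and the reason for the difference was not tested. At 4 months the count of 1 became 3 in a fit of that age alone, 4 with array weights, 0 without controls 3 and 4, and 0 to 2 leaving out 1 array. The count of effects that differed between 8 and 2 months, 2, became 6 with array weights, 5 without 2 month arrays 5 and 6, 4 with the replicate block and 1 to 6 leaving out 1 array. The share of all genes called also moved from that of the reported fit. With array weights it was 9.97%, 7.24% and 20.9% in order of age, and 8.6% for the change from 2 to 8 months. For that change it was 5.1% without 2 month arrays 5 and 6 and 5.26% with the block. It was 20% at 8 months without 2 month control array 6. Fits of one age alone gave 2.75% at 4 months and 18.2% at 8 months. The gap between fibrillar and basement membrane medians at 2 months was 0.0026 to 0.221 leaving out 1 array, lowest without diabetic array 6.

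The replicate block within age, a pairing the labels do not state, called 0 members at the first age, 1 at the second and 13 at the third, where Col6a2 was lost (adjusted p 0.0621) and Col8a1 (0.0436) and Col9a3 (0.0239) were gained. Of 2422 alternative values of 92 results on named members, 2267 kept direction and side of the threshold, 32 lost a call, 57 gained one, 0 were called in the opposite direction and 66 that were not called changed sign. Alternatives moved the median of all genes by less than 0.1. Partner and marker genes were not refitted. Dim probe sets compress differences, and no depth applies to arrays.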
